A study of Mus musculus with 12 samples.

Results

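The regions described are the open-chromatin peaks of 10 genes of MHC class II antigen presentation in mouse brain macrophages. Members were chosen by gene name, as every merged peak that the authors' HOMER annotation assigned to H2-Ab1, H2-Aa, H2-Eb1, H2-DMa, H2-DMb1, H2-DMb2, H2-Oa, H2-Ob, Cd74 or Ciita. This gave 42 of 60288 peaks in untreated mice and 32 of 54953 peaks in LPS-challenged mice, and all of them passed the filter on low counts (a count over 10 in at least 1 library). In untreated mice 3 of the 42, 1 each of Ciita, H2-DMb1 and H2-Aa, passed it through graft libraries alone. HOMER assigns a peak to the gene with the nearest start site, so a member peak is near a gene and is not known to act on it.

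ATAC-seq marks accessible chromatin by where a transposase can cut, and was run on cells sorted from brains of bone marrow chimeras of the C57BL/6J strain, labelled WT. All 6 mice, controls included, had received 950 cGy of irradiation and donor marrow, and were used 9 months later, the longer of the intervals of 3.5 and 9 months in the labels and the one the text of the study names for this experiment. Graft-derived cells carried CD45.1 and host microglia CD45.2, and the study describes both donors and recipients of this experiment as wild type. Both populations came from each brain, of untreated mice 4, 5 and 6 and of mice 1, 2 and 3 killed 12 h after 2.5 mg/kg of the bacterial endotoxin LPS, giving 4 groups of 3 libraries.

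MHC class II molecules are pairs of an alpha and a beta chain that present peptides from endocytosed proteins to CD4+ T cells. The invariant chain (Cd74) guides new pairs through the cell and blocks their groove, DM (H2-DMa with H2-DMb1 or H2-DMb2) exchanges the remnant of the invariant chain for peptide, and DO (H2-Oa with H2-Ob) restrains DM. These genes share promoter elements called the W, X and Y boxes, to which RFX, CREB and NF-Y proteins bind constitutively, while the transactivator Ciita, which does not itself bind DNA, sets whether they are transcribed. Resting microglia are known for little class II expression, and Ciita is transcribed from several alternative promoters that differ between cell types.

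The sequences of 3 peaks with the class II promoter element and of 3 of the 4 peaks called in untreated mice are shown. The element was searched on both strands as an X box core (AGNAAC, 3 free bases, TG) followed 5 to 25 bases later by a Y box (ATTGG), in 300-base windows centred on each peak. In untreated mice 4 of 42 member windows (9.52%) held it, against 55 of all 60277 windows (0.0912%), and in LPS-challenged mice 4 of 32 (12.5%) against 49 of 54944 (0.0892%). In both treatments these were the promoter peaks of H2-Eb1, H2-Ob and H2-DMb1 and a peak 12620 bases upstream of H2-Oa, and all but the H2-DMb1 peak, which overlaps an annotated UTR, are printed. No match says only that these letters were not in the window. Capitals mark the X box core and the Y box in peaks read from mm9, in which 22, 20 and 22 bases lie between them.
H2-Eb1 promoter peak, chr17:34442689-34442819, plus strand: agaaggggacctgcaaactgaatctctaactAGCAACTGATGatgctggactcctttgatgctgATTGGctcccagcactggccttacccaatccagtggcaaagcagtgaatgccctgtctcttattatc
H2-Ob promoter peak, chr17:34375708-34375845, plus strand: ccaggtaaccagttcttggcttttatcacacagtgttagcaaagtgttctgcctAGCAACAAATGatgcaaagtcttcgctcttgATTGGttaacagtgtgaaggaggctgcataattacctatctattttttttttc
H2-Oa upstream peak, chr17:34216635-34216773, minus strand: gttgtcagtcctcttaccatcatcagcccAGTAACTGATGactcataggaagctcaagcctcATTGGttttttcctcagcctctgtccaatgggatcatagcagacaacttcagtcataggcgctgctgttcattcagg

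The Y box alone (ATTGG, also part of the element above) was in 20 of 42 untreated member windows (47.6%) against 30.8% of all windows, and in 18 of 32 LPS windows (56.2%) against 31.7%. The PU.1 motif GAGGAA was in 22 untreated member windows (52.4%, all windows 42.9%). The interferon-response motif GAAANNGAA was in 4 (9.52%, all windows 11.4%), the gamma-activated site TTCNNNGAA in 5 (11.9%, all windows 8.37%) and the AP-1 motif TGANTCA in 4 (9.52%, all windows 10.5%). The 3 peaks printed next were more open in graft-derived cells, with the PU.1 and interferon-response letters in capitals. The other called peak, 6779 bases downstream of an H2-Aa start, is not printed. Its window held none of the motifs searched. In the Ciita intron peak the PU.1 match (bases 119 to 124 as printed) and the interferon-response match (bases 122 to 130) overlap, and in the H2-DMb1 intron peak they lie apart, with the interferon-response match on the opposite strand (bases 59 to 67). The upstream Ciita peak held none of these matches.
Ciita intron peak, chr16:10482587-10482756, minus strand: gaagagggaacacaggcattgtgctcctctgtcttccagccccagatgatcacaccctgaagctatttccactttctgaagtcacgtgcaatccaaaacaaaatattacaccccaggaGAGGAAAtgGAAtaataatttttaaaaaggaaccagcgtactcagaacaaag
Ciita upstream peak, chr16:10476118-10476249, plus strand: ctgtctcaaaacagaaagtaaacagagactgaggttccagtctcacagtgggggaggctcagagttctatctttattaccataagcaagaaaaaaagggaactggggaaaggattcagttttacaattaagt
H2-DMb1 intron peak, chr17:34294042-34294146, plus strand: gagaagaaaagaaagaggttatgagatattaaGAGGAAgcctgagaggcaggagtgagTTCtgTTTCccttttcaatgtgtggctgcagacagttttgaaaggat

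Untreated libraries held 8392877.5 to 9107770 tags in all and LPS libraries 2966364 to 6556594.5, with median counts per peak of 16 to 35 and 8 to 23.5, so LPS values are less precise. The CD45.2 library of mouse 4 had the fewest tags in peaks of the untreated libraries (1680263.5) despite the highest total. Of 6 genes that mark microglia 2 were called lower in graft-derived cells at rest and 1 after LPS, with list medians of -0.24 and -0.04. Sall1 had 1042 ± 65.4 normalised tags in host microglia and 111 ± 82.7 in graft-derived cells (SD, n = 3), a log2 fold change of -3.22, and it was -3.15 after LPS. The B cell marker Ms4a1 was higher in graft-derived cells in both treatments (1.73 and 1.22), and in untreated mice so were the dendritic cell marker Flt3 (0.54) and the T cell marker Cd3d (0.70, 1 peak), while the B cell gene Ebf1 (-1.001) and the neutrophil gene S100a9 (-1.16, 1 of 3 neutrophil genes with peaks) were lower. Markers of perivascular macrophages and monocytes (4 of 5 genes with peaks) summed to 357 to 384 normalised tags in graft-derived and 243 to 278 in host cells, and to 253 to 270 and 139 to 156 after LPS. Other defining markers, Cd79a and Pax5 of B cells, Xcr1 of dendritic cells and Cd3e and Cd8a of T cells, had no peak in either table. Summed over the list, B cell markers ranged from 119.99 to 139 normalised tags in graft-derived and from 79.0 to 97.2 in host cells (2 of 5 genes with peaks), dendritic cell markers from 660 to 722 and from 632 to 670 (4 of 5), and T cell markers from 137 to 164 and from 120 to 134 (2 of 4). After LPS the sums were 40.3 to 52.4 and 28.8 to 33.9 for B cells, 272 to 291 and 239 to 319 for dendritic cells, and 30.7 to 37.1 and 40.5 to 48.8 for T cells. The part of such cells in the class II values was not tested, and in bulk libraries fewer cells of a type and less openness per cell cannot be told apart.

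The comparison of graft-derived cells with host microglia at rest asks whether chromatin at these genes differs between the populations. Of the 10 genes, Ciita alone differed in its summed accessibility (means of 112 and 45.3 normalised tags), and the loci of the chains it controls did not pass the test. The Ciita sum includes 1 peak that passed the filter on counts through graft libraries alone. Values are tags summed over a gene's peaks, divided by the size factor of the library, and fold changes are log2 of CD45.1 over CD45.2 with their standard error (SE) and Benjamini-Hochberg adjusted p from DESeq2 over all genes of the table. The p-values rest on the spread between 3 mice a group. Over all 16174 genes tested, 7.35% were called higher and 7.46% lower in graft-derived cells at adjusted p under 0.05. Of the members 1 of 10 was called higher and 0 lower (1 further gene, H2-Eb1, had an unadjusted p under 0.05), 9 of 10 had a fold change above 0, and the median was 0.21 against -0.00 for all genes.

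**Figure D1:**
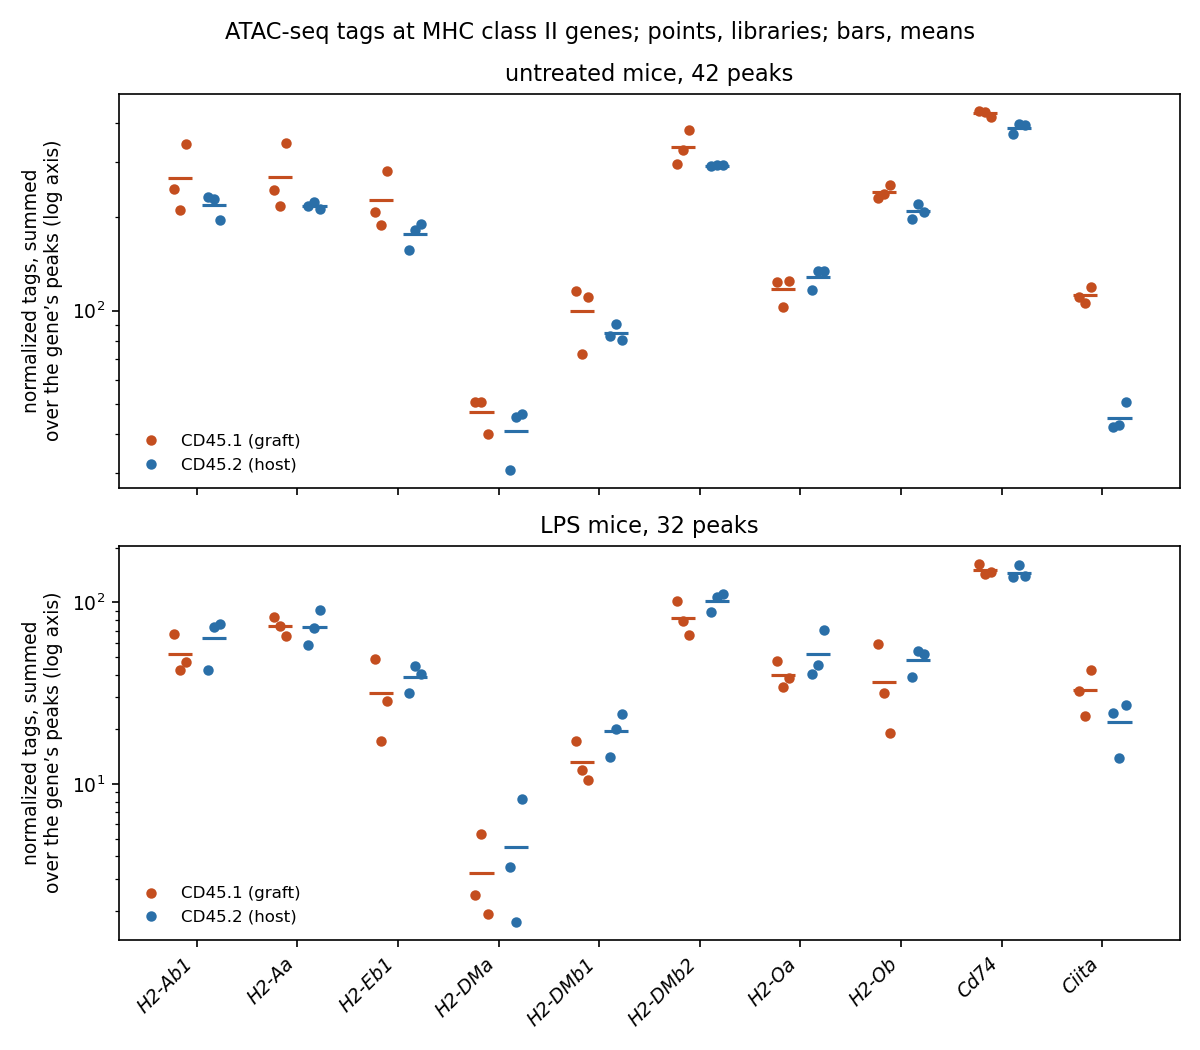
Summed normalised tags (log axis) of each of the 10 genes in each library, for graft-derived (CD45.1) and host (CD45.2) cells of untreated and LPS-challenged mice, with group means as lines and each treatment normalised on its own, so that levels are compared only within a panel. In untreated mice the Ciita values of graft-derived cells (106 to 119) lie apart from those of host microglia (42.1 to 50.7), while the groups overlap at H2-Ab1, H2-Aa, H2-Eb1, H2-DMa, H2-DMb1 and H2-Oa.

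Ciita, the transactivator, had 111, 106 and 119 normalised tags in graft-derived cells of mice 4, 5 and 6 and 42.1, 43.0 and 50.7 in host microglia of the same mice. All 3 graft libraries lay above all 3 host libraries (means 112 ± 6.93 and 45.3 ± 4.73), and the log2 fold change was 1.29 (SE 0.226, 95% interval 0.85 to 1.74, adjusted p 3.17e-07). With only its peaks within 1000 bp of a start site the value was 0.34 (adjusted p 0.974), so the difference came from peaks outside the promoter window. Its intron 1 peak, described next, passed the filter on counts through graft libraries alone and had means of 24.1 and 0.787 normalised tags. The sum without that peak was not fitted.

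Ciita had 4 peaks in untreated mice, and 2 of them were called. The upstream peak (chr16:10476118-10476249, intergenic, 3982 bases before the start site HOMER used) had 41.0, 38.3 and 42.5 normalised tags in graft-derived cells and 9.83, 10.8 and 12.98 in host microglia. The groups did not overlap, and the log2 fold change was 1.83 (SE 0.396, adjusted p 9.02e-05). The intron peak (chr16:10482587-10482756, intron 1, 2434 bases after the first annotated start) had 24.3, 21.9 and 26.1 normalised tags against 0, 1.55 and 0.812. Its summed counts, rounded, were 74 in graft-derived cells and 3 in host microglia, a ratio of 25.1 after scaling (95% counting interval 8.25 to 124), and the fitted log2 value was 4.67 (SE 0.954, adjusted p 2.95e-05). The authors' own peak lists held both peaks in 3 of 3 graft libraries and in 0 of 3 host libraries, where a list was taken to hold a peak if it covered at least 50% of it. With an overlap of 1 base, 2 of 3 host lists held the upstream peak.

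The other 2 Ciita peaks did not pass the test. The peak 55 bases before a start site (chr16:10480039-10480181) had 18.7, 16.4 and 25.05 normalised tags in graft-derived cells and 13.1, 15.5 and 16.2 in host microglia (0.40, SE 0.445, adjusted p 0.704). The groups lay side by side with barely a gap. The peak 6402 bases after a start site (chr16:10496206-10496346, intron) had 26.1, 28.3 and 30.5 against 19.7, 13.9 and 19.5 (0.70, SE 0.392, adjusted p 0.283), again without overlap. The latter is named outside the rule for single peaks, so that all 4 Ciita peaks stand together.

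**Figure D2:**
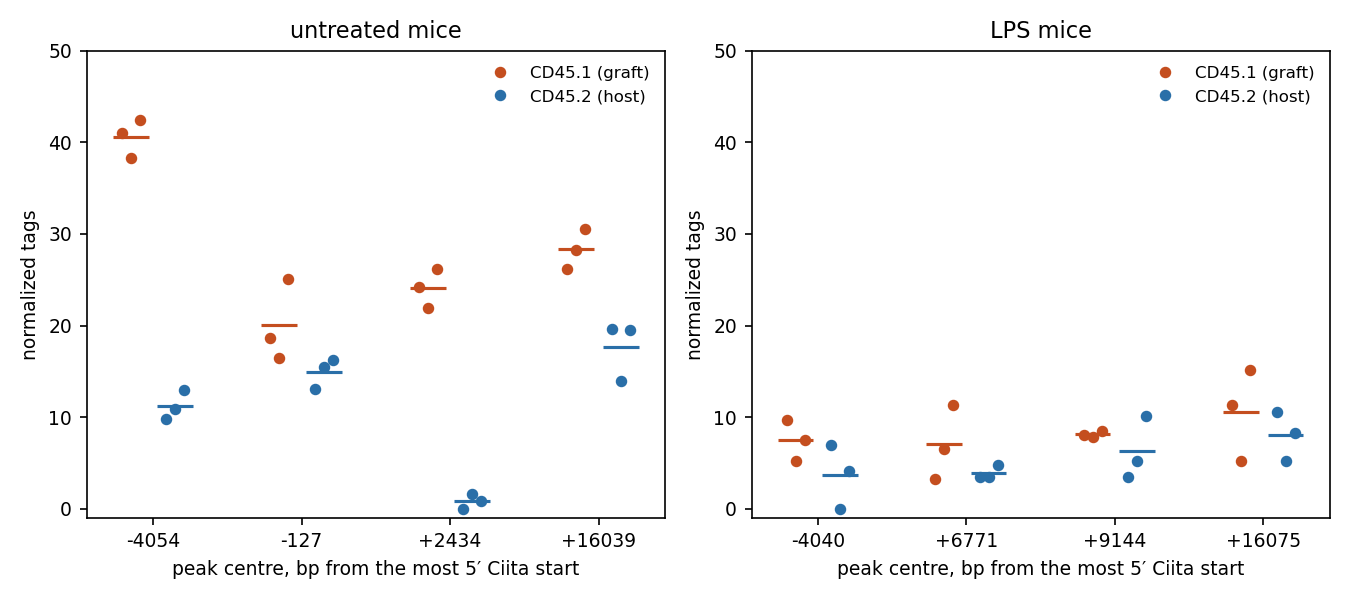
Normalised tags per library in each Ciita peak of untreated and LPS-challenged mice, ordered along the gene by distance from the first annotated start, with means as lines and each treatment normalised on its own. In untreated mice the upstream peak (38.3 to 42.5 against 9.83 to 12.98) and the intron peak (21.9 to 26.1 against 0 to 1.55) separate graft-derived from host cells, and after LPS the groups overlap in every Ciita peak.

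The classical chains are those of the presenting molecules, H2-Ab1 and H2-Aa the I-A pair and H2-Eb1 the beta chain of I-E. In this strain the alpha chain gene of I-E is a pseudogene, so H2-Eb1 is grouped here by its kind of chain. Summed over its peaks H2-Ab1 had 246, 211 and 342 normalised tags in graft-derived cells and 232, 229 and 195 in host microglia (0.29, SE 0.168, adjusted p 0.319). H2-Aa had 244, 217 and 346 against 217, 223 and 213 (0.30, SE 0.164, adjusted p 0.258). H2-Eb1 had 208, 189 and 281 against 157, 181 and 190 (0.35, SE 0.167, adjusted p 0.176). In each of the 3 the graft library of mouse 6 was the highest of the 6, and the libraries of mouse 5 lay close together.

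At the peak nearest the start site of each of the 3 the groups overlapped. The H2-Ab1 promoter peak (chr17:34400043-34400176) had 64.4, 62.1 and 107 normalised tags in graft-derived cells and 72.1, 74.3 and 50.3 in host microglia (0.25, SE 0.261, adjusted p 0.680). The H2-Aa promoter peak (chr17:34424794-34424923) had 63.4, 64.8 and 98.0 against 83.6, 74.3 and 61.7 (0.05, SE 0.242, adjusted p 0.948). Without the graft library of mouse 6 these values were -0.031 and -0.16. The H2-Eb1 promoter peak, whose X and Y boxes are printed above, had 95.1, 71.2 and 122 against 78.7, 78.2 and 89.3 (0.22, SE 0.225, adjusted p 0.671). A second H2-Eb1 peak that HOMER places in the promoter, 922 bases upstream and named after its values were seen, had 54.1, 51.1 and 98.0 against 39.3, 38.7 and 47.1, without overlap (0.68, SE 0.293, adjusted p 0.106).

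Of the 13 peaks of the classical chains 12 had a fold change above 0 and 1 was called. It lay 6779 bases downstream of the start site HOMER used for H2-Aa (chr17:34417885-34417989, intergenic to HOMER and in an intron of a long H2-Aa transcript in the GENCODE vM1 annotation). It had 1.87, 3.65 and 17.4 normalised tags in graft-derived cells and 0 in each host library, at least 7.45-fold higher when the host group was set to a floor of 3 counts over the group. Its adjusted p was 0.00487, but 1 graft library, mouse 6, carried most of the tags and alone had the peak in its own list. The call was lost with the mouse as a block (adjusted p 0.322) and without the graft library of mouse 4 (0.121) or of mouse 5 (0.259) or the host library of mouse 5 (0.0554). Without the graft library of mouse 6 the peak failed the filter on counts and was not tested.

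DM edits the peptides on class II molecules. H2-DMa had 50.6, 51.0 and 40.1 normalised tags in graft-derived cells and 30.8, 45.3 and 46.5 in host microglia (0.18, SE 0.290, adjusted p 0.833). HOMER places both H2-DMa peaks in intron 1 of the gene. In the GENCODE annotation they are intergenic, at -2505 and -5364 bases from the start of Brd2. From that of H2-DMa they lie at -10360 and -7501 bases. H2-DMb1 had 115, 72.3 and 111 against 82.6, 90.7 and 80.6 (0.23, SE 0.220, adjusted p 0.647). H2-DMb2 had 296, 328 and 380 against 292, 293 and 293 (0.19, SE 0.129, adjusted p 0.420), and here the groups did not overlap, by a narrow margin. Part of the H2-DMb2 value came from a peak at the start of H2-DMa in the GENCODE annotation (chr17:34272391-34272548, in its UTR), which HOMER gave to H2-DMb2 and which is named here for that position, outside the rule for single peaks. That peak was the most open per length among those described singly and was alike in both populations, with 164, 142 and 203 against 182, 154 and 149 normalised tags (0.08, SE 0.171, adjusted p 0.871).

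Of the 10 DM peaks 1 was called, the H2-DMb1 intron peak printed above (intron 2 of 5). It had 14.9, 9.13 and 18.5 normalised tags in graft-derived cells and 3.28, 3.10 and 1.62 in host microglia, without overlap (2.45, SE 0.756, adjusted p 0.0114). It was in the own lists of 3 of 3 graft and 0 of 3 host libraries. With the mouse as a block its adjusted p was 0.0695, and it was 0.0758 and 0.0823 without the graft libraries of mice 4 and 6 and 0.0769 and 0.121 without the host libraries of mice 5 and 6. The H2-DMb1 promoter peak (chr17:34290000-34290126) had 70.9, 48.4 and 69.7 against 54.1, 60.4 and 54.4 (0.15, SE 0.254, adjusted p 0.825).

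DO, the inhibitor of DM, was the only role with a median fold change of its peaks below 0 (-0.07, 4 of 9 above 0, none called). H2-Oa had 124, 103 and 125 normalised tags in graft-derived cells and 117, 134 and 134 in host microglia (-0.14, SE 0.180, adjusted p 0.759). H2-Ob had 230, 237 and 253 against 198, 220 and 207, without overlap (0.20, SE 0.138, adjusted p 0.447). Its promoter peak, printed above, had 32.6, 22.8 and 21.8 against 34.4, 29.4 and 26.0 (-0.19, SE 0.359, adjusted p 0.849).

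Cd74, the invariant chain, had 437, 435 and 418 normalised tags in graft-derived cells and 369, 399 and 395 in host microglia (0.15, SE 0.110, adjusted p 0.497). Each graft library lay above each host library, by a small step. Its promoter peak (chr18:60963305-60963428) had 91.4, 60.2 and 117 against 72.1, 66.6 and 47.1 (0.54, SE 0.261, adjusted p 0.174), which became 0.0497 without the graft library of mouse 5.

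Per 100 bp of peak, the promoters of the classical chains, H2-DMb1 and Cd74 had higher means than that of the transactivator in both populations. The H2-Eb1 promoter peak had 73.4 normalised tags per 100 bp in graft-derived cells and 62.6 in host microglia, those of H2-Ab1 58.0 and 48.9, H2-Aa 58.0 and 56.3, H2-DMb1 49.6 and 44.3, and Cd74 72.1 and 49.9. The Ciita peak nearest a start site had 14.02 and 10.4, the H2-Ob promoter peak 18.7 and 21.7, and the intronic peak nearest the H2-Oa start 17.6 and 22.6. The order of the H2-Ab1, H2-Aa and H2-DMb1 promoters is not separated by their spread over libraries, nor, in graft-derived cells, is that of Ciita, H2-Ob and H2-Oa.

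Across all 42 peaks, 4 were called higher in graft-derived cells and 0 lower at adjusted p under 0.05 (9 had an unadjusted p under 0.05, all higher in graft-derived cells), beside 8.54% called higher and 6.32% lower of all 59170 peaks tested. The members' share of higher calls is near the background, and 3 of the 4 called peaks passed the filter on counts only through the group in which they were high. By the study's rule, an adjusted p under 0.01 and a more than 4-fold difference, 2 of 42 were higher (background 3.78%), the Ciita intron peak and the H2-Aa peak, and 1 remained with the mouse as a block. With the block 2 of the 4 calls stood, both of Ciita, and the same 2 stood without the graft library of mouse 4 or 6 or the host library of mouse 5. With peaks of a mean count of at least 20 only the upstream Ciita peak was called. The uncalled peaks ranged from -0.48 to 1.22 with adjusted p from 0.106 to 0.989.

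The members leaned towards graft-derived cells in size rather than in calls. Of the 42 peaks 31 had a fold change above 0, with a median of 0.30 against 0.00 for all peaks, and by role the medians were 0.36 for the classical chains, 0.23 for DM, -0.07 for DO, 0.21 for Cd74 and 1.26 for Ciita. These counts and medians, and the count of separated peaks below, include the 3 peaks that passed the filter through graft libraries alone. All 3 were above 0 with groups apart. In 15 peaks all graft libraries lay above all host libraries, where 17.7% of all peaks did, and 1 peak lay the other way (background 17.7%), 14609 bases upstream of H2-Oa (named after its values were seen). The graft library of mouse 6 was the highest of the 6 in 24 of the 42 peaks, against 24.3% of all peaks. Without it 28 of the 41 peaks still tested were above 0 and the median was 0.09. The called H2-Aa peak, which was above 0 with all libraries, then failed the filter on counts. In the authors' own lists, 26 of the 42 peaks were in all 3 graft libraries and 21 in all 3 host libraries, and 5 and 8 were in none.

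**Figure D3:**
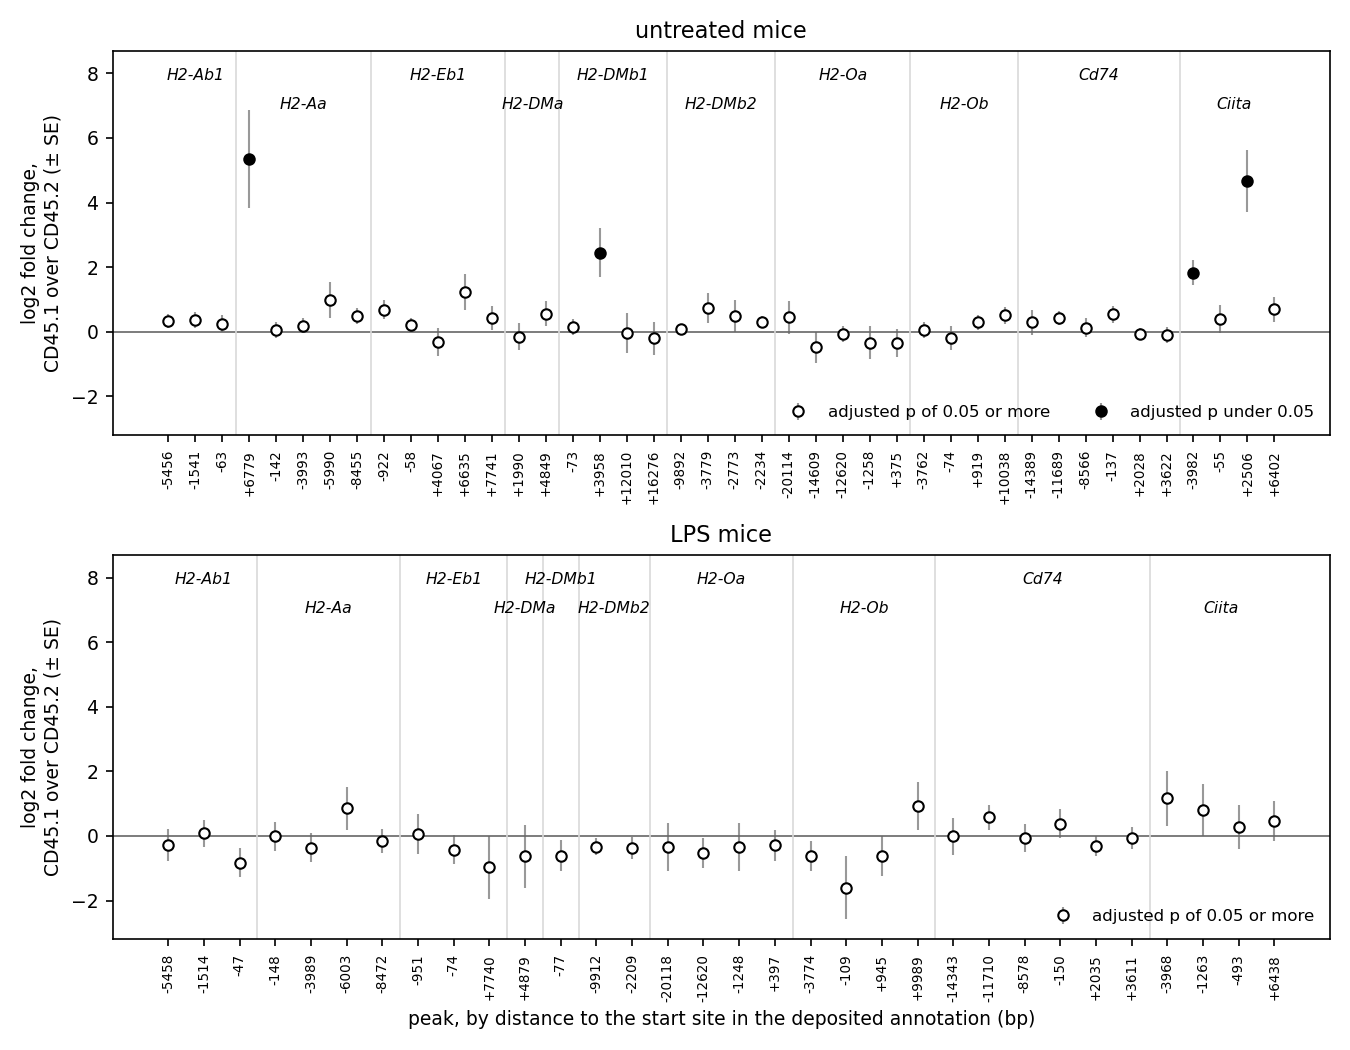
Log2 fold change (CD45.1 over CD45.2) of every member peak with its SE, by gene and distance to the start site, in untreated (42 peaks) and LPS-challenged mice (32 peaks), with called peaks as filled points. The 4 called peaks are all in untreated mice and above 0, and after LPS 22 of 32 peaks lie below 0 with none called.

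The same comparison after LPS asks whether the populations differ once challenged. No member passed the test. Of 32 peaks 0 were called by DESeq2 in either direction and 0 had an unadjusted p under 0.05, while edgeR called 0 and gave 2 an unadjusted p under 0.05. The background was 4.08% of 49180 peaks higher and 2.38% lower in graft-derived cells, and by the 4-fold rule 1.78% higher and 0 of the members. Of the 32 peaks 10 had a fold change above 0, with a median of -0.29 (all peaks -0.01) and a range from -1.60 to 1.16. Over the 29 peaks still tested without the host library of mouse 3, this median was -0.01. In that library 11 of the 32 peaks were highest (17.6% of all peaks). In 1 peak, 11710 bases upstream of Cd74 and named after its values were seen, all graft libraries lay above all host libraries (background 14.1%) and in 0 the reverse, beside 27.1% of all peaks with groups apart in either direction.

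At the gene level 0 of 10 members were called and 0 had an unadjusted p under 0.05 by DESeq2, and edgeR called 0, beside 4.08% higher and 2.98% lower of all 15722 genes. Ciita had 32.8, 23.8 and 42.3 normalised tags in graft-derived cells of mice 1, 2 and 3 and 24.7, 13.98 and 27.4 in host microglia (0.60, SE 0.383, 95% interval -0.16 to 1.35, adjusted p 0.475). The graft value was higher in each of the 3 mice, and the groups overlapped. Cd74 had 164, 143 and 147 against 137, 162 and 139 (0.05). The other 8 genes had fold changes from -0.62 (H2-DMa) to -0.02 (H2-Aa), with overlapping groups. H2-DMa, with 1 peak left, had at most 8.33 normalised tags in any library, so a difference there was hardly detectable at this depth. In the GENCODE annotation that peak lies at -5394 bases from the start of Brd2 and at -7471 from that of H2-DMa.

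Single peaks after LPS showed the same lack of separation. The upstream Ciita peak (chr16:10476135-10476259) had 9.70, 5.22 and 7.55 normalised tags in graft-derived cells and 7.01, 0 and 4.16 in host microglia (1.16, SE 0.856, adjusted p 0.597). The merged LPS peaks included neither the Ciita intron 1 peak nor the peak at its first start site. They did include Ciita peaks without an untreated match. The peak 493 bases before a later start had 8.09, 7.83 and 8.49 against 3.50, 5.23 and 10.1 (0.27, SE 0.686, adjusted p 0.923). Another in intron 1, 1263 bases before a start and named outside the rule for single peaks, had 0.80 (SE 0.809, adjusted p 0.746). The H2-Ab1 promoter peak had 21.02, 10.4 and 13.2 against 17.5, 28.8 and 32.1 (-0.82, SE 0.438, adjusted p 0.360), and mice 2 and 3 had the higher value in host microglia while mouse 1 did not. The H2-Ob promoter peak had the lowest fold change of the 32 (-1.60, SE 0.978, adjusted p 0.470). In the authors' own lists, 5 of the 32 peaks were in all 3 graft libraries and 10 in all 3 host libraries at 50% cover, and 11 and 12 when an overlap of 1 base sufficed.

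Of the 42 and 32 member peaks, 28 could be matched one to one between the treatments (at least 50% reciprocal overlap), out of 39390 matched pairs, and were tested in a single DESeq2 model over all 12 libraries. LPS and untreated peaks were called, merged and counted separately and LPS peaks were wider (median 153.5 against 138.5 bases in the matched members, 21 of 28 wider in LPS), so treatment and table cannot be told apart in the contrasts within a population. The interaction asks whether the 2 populations responded differently. It was called in 0 of 28 by DESeq2 (1 with an unadjusted p under 0.05) and in 0 by edgeR (4 unadjusted), and with the mouse as a block, nested in treatment, in 0 (0 unadjusted), beside 0.242% of all 39235 pairs tested. The lowest p was at the H2-Ab1 promoter peak (-1.05, SE 0.453, adjusted p 0.764). In simulated counts the DESeq2 interaction test recovered 6% of log2 changes of 1 and 42% of log2 changes of 2. The simulated libraries had 1 fixed spread for all peaks, and only peaks above a low mean count were changed. Recovery at the member peaks can differ. Of the 28 estimates 25 were below 0, with a median of -0.49 against -0.02 for all pairs, of which 52.0% were below 0, and the median was -0.20 without the host LPS library of mouse 3 and -0.27 without the untreated graft library of mouse 6.

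Within graft-derived cells, accessibility was lower after LPS at most class II peaks. Of the 28, 16 were called lower and 0 higher at adjusted p under 0.05, beside 7.41% lower and 12.5% higher of all pairs. The called values ran from -2.38 to -0.64, the median of all 28 was -0.86 (all pairs -0.00), and in 19 peaks all LPS libraries lay below all untreated ones (background 19.8%). By role the lower calls were 8 of 9 peaks of the classical chains, 4 of 4 of DM, 3 of 7 of DO (all of H2-Ob), 1 of 2 of Ciita and 0 of 6 of Cd74. The number of lower calls fell to 9 without the LPS graft library of mouse 3 or the untreated graft library of mouse 6, to 7 with libraries scaled by total tags, and to 6 among the 16 pairs that overlapped by 80%.

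Within host microglia 5 of 28 were called lower and 0 higher, beside 5.01% lower and 11.6% higher of all pairs. These 5 peaks were also called in graft-derived cells. The called values ran from -1.92 to -0.79, the median was -0.36 (all pairs -0.01), and 11 peaks had all LPS libraries below all untreated ones (background 18.5%). They were 3 of 9 peaks of the classical chains and 2 of 7 of DO, with 0 of DM, Cd74 and Ciita. The greater number of calls in graft-derived cells was not tested as such, and the interaction was called at no single peak. The 5 calls became 2 or 3 without any 1 of the 6 host libraries and 3 without the untreated graft library of mouse 4, 2 with total tags, and 0 among pairs that overlapped by 80%.

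**Figure D4:**
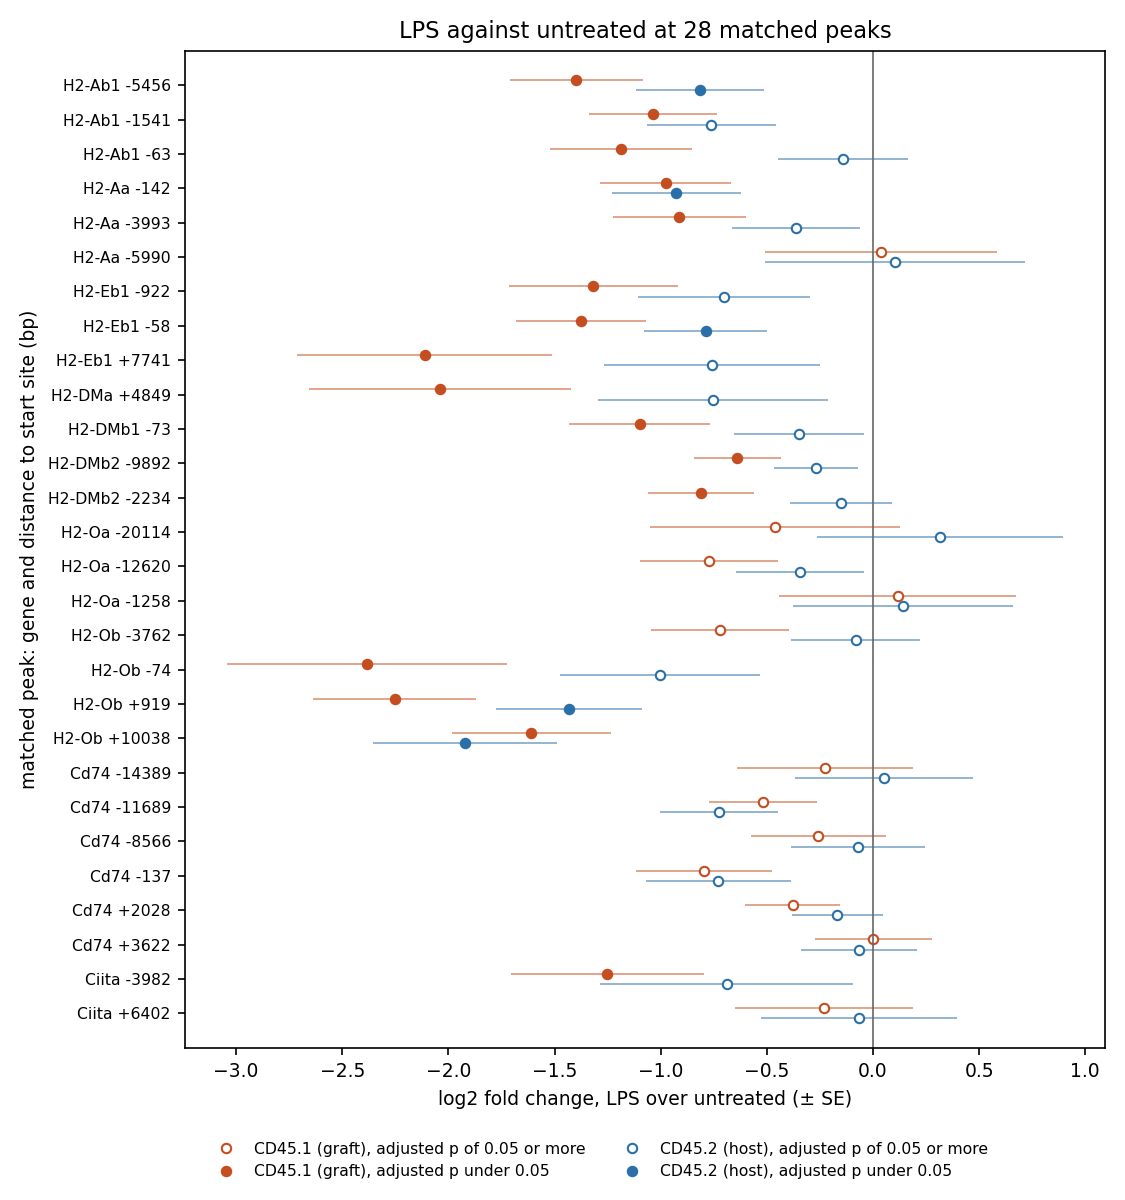
Log2 fold change of LPS over untreated at the 28 matched member peaks, in graft-derived (CD45.1) and host (CD45.2) cells, with bars of 1 SE, by gene, and called peaks as filled points. In graft-derived cells 25 of 28 values lie below 0 and in host cells 24, with called decreases at 16 and 5 peaks, and the Cd74 medians (-0.32 and -0.12) are the nearest to 0 of the 10 genes.

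The lowest adjusted p in each population was at a peak of H2-Ob, and these peaks are named here after their values were seen. The peak 919 bases after its start had 21.1, 9.72 and 4.20 jointly normalised tags in graft-derived cells after LPS and 46.7, 58.2 and 70.9 in untreated mice (-2.25, SE 0.383, adjusted p 2.54e-07). In host microglia it had 22.7, 17.7 and 15.8 against 39.2, 54.8 and 49.5 (-1.43, SE 0.345, adjusted p 0.000594). The groups did not overlap in either population. The peak 10038 bases after the start was lower by a similar size in both, at -1.61 (SE 0.375, adjusted p 0.000358) and -1.92 (SE 0.433, adjusted p 0.000196). HOMER calls it intergenic, and it lies in an H2-Ob intron in the GENCODE annotation. The nearest start there is that of another gene, Gm20506, at -114 bases, while the nearest H2-Ob start is 8907 bases away. The H2-Ob promoter peak, with its X and Y boxes, was lower in graft-derived cells (5.86, 0 and 2.80 against 21.8, 15.3 and 14.3, -2.38, SE 0.660, adjusted p 0.00353) and had -1.004 in host microglia (adjusted p 0.133).

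The promoter peaks of the classical chains showed the same direction. The H2-Eb1 promoter peak had 32.8, 15.5 and 22.4 jointly normalised tags in graft-derived cells after LPS and 63.5, 47.8 and 80.3 in untreated mice (-1.38, SE 0.306, adjusted p 0.000164). In host microglia it had 37.8, 24.01 and 35.9 against 52.2, 53.2 and 60.4 (-0.79, SE 0.290, adjusted p 0.0417). No LPS library reached an untreated one. The H2-Aa promoter peak had -0.98 (SE 0.309, adjusted p 0.0124) in graft-derived cells and -0.93 (SE 0.305, adjusted p 0.0191) in host microglia. The H2-Ab1 promoter peak had 30.5, 15.5 and 19.6 against 42.9, 41.6 and 70.2 in graft-derived cells (-1.19, SE 0.334, adjusted p 0.00431) but 25.2, 41.7 and 47.3 against 47.9, 50.6 and 34.1, with overlap, in host microglia (-0.14, SE 0.306, adjusted p 0.809). A peak 5456 bases upstream of H2-Ab1, named after its values were seen, was lower in both populations (-1.40, adjusted p 0.000185, and -0.82, adjusted p 0.0429).

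Among the other roles, the H2-DMb1 promoter peak was lower after LPS in graft-derived cells (-1.10, SE 0.333, adjusted p 0.00851) and had -0.35 in host microglia (adjusted p 0.478). The upstream Ciita peak had 14.1, 7.77 and 11.2 jointly normalised tags after LPS and 27.4, 25.7 and 27.9 untreated in graft-derived cells (-1.25, SE 0.455, adjusted p 0.0340). In host microglia, where it was low in either state, it had 10.1, 0 and 6.13 against 6.53, 7.38 and 8.79 (-0.69, adjusted p 0.474). After LPS the host values overlapped the graft values at this peak. None of the 6 Cd74 peaks was called in either population, with medians of -0.32 and -0.12, and the promoter peak had -0.80 (adjusted p 0.0601) and -0.73 (adjusted p 0.131).

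Other genes of the class II pathway were examined as a list of 31 genes, all of which had peaks in untreated mice. At rest 4 of 31 were called higher in graft-derived cells and 0 lower, beside the background of 7.35% and 7.46% given above. The median fold change was 0.02, and whether the list differs from the background was not tested. They were Irf1, an interferon-response factor that acts on Ciita (472 ± 26.6 against 324 ± 10.9 normalised tags, 0.55), the co-stimulatory genes Cd86 (561 ± 62.2 against 398 ± 25.8, 0.49) and Cd40 (138 ± 18.1 against 73.2 ± 10.6, 0.90), and H2-Ea-ps, the I-E alpha pseudogene of this strain (273 ± 39.2 against 162 ± 5.19, 0.76). These 4 were picked by their calls, and none of them overlapped between the groups. None of the 7 genes of the RFX, NF-Y and CREB proteins that bind the promoter boxes was called, nor any of 5 genes of antigen processing or 8 of class I presentation. With libraries scaled by their total tags 0 of the 31 were called.

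After LPS, 1 of 30 pathway genes with peaks was called higher and 1 lower in graft-derived cells, with a median of -0.05. Cd86 was higher again (385 ± 6.11 against 266 ± 9.47 normalised tags, 0.53, SE 0.148, adjusted p 0.00671). Ifngr2, a chain of the interferon-gamma receptor, was lower (97.6 ± 16.3 against 160.4 ± 18.7, -0.70, SE 0.208, adjusted p 0.0140). Neither call stood with the mouse as a block, where 0 of 30 passed, and 0 passed without the graft library of mouse 2 or 3 or the host library of mouse 2.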

How the data were processed

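Per the submitters' processing notes, reads were handled with bcl2fastq 2.17.1.14, Bowtie2, Picard 1.108 and HOMER on mm9. The authors called peaks per library, merged them within each treatment, annotated each to the nearest start site and counted tags in it. The merged tables that the authors deposited give raw tags, in steps of 0.5, which were taken as estimated counts (expected counts) and rounded. The deposited lists of each library hold a normalized signal per peak, of which only positions were used. If duplicates were left in, counts would look more precise than they are, and wider LPS peaks collect more tags. Genes were counted as sums over their peaks. Positions are those of the tables on mm9, with GENCODE vM1 features.

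Each table was fitted alone with DESeq2 1.42.0 in R 4.3.3 (3 against 3, median-of-ratios scaling, Benjamini-Hochberg over all features tested). Matched peaks were fitted over 12 libraries. edgeR 4.0.16, other filters and scalings, the mouse as a block and each library left out were alternatives, and the scripts were tested on simulated data. There, graft against host, 13% of untreated peaks and 6% of LPS peaks with a log2 change of 1 were recovered. The simulation gave all features 1 fixed spread and changed only those above a low mean count, so recovery in the data can differ. Graft and host cells of 1 number came from 1 mouse, which pairs them by design. Deviations of same-numbered libraries correlated at 0.0807, 0.0822 and 0.0873 in mice 4 to 6 and at -0.0665, 0.0608 and 0.149 in mice 1 to 3. The rule for single peaks was each gene's peak nearest its start, peaks called in either table and peaks past the interaction, and peaks outside this rule are marked as such. Not given singly were the nearest peaks of H2-DMa and H2-DMb2 at rest, and that of H2-Oa only per length. Graft against host after LPS, those of H2-Aa, H2-Eb1, H2-DMb1, H2-DMb2, H2-Oa and Cd74 were not given singly. None of these was called. Members, lists and tests were chosen with earlier results of these data known. Intervals and floors cover counting error only. All value columns could be assigned to samples.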

Additional observations from a re-analysis of the deposited data

How the results depend on the processing

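Of 146 recomputed counts 111 stayed within 1.5 times their main value, and of 483 recomputed single values 460 kept their direction and side of the threshold, 10 lost it, 1 gained it and 12 changed sign. In untreated mice the gene count fell from 1 to 0 with promoter peaks only. The 4 called peaks became 1 with a mean count of at least 20 and 2 with the replicate block (the mouse), and 2 to 4 when each library was left out. The 2 peaks past the 4-fold rule became 0 with that mean count and 1 with the block, with total-tag scaling or without any 1 library. The 16 lower peaks in graft-derived cells after LPS became 6 with 80% overlap, 7 with total tags and 9 to 16 without a library. The 5 in host microglia became 0 with 80% overlap (5 at an unadjusted p under 0.05), 2 with total tags and 2 to 5 without a library. Pathway genes fell from 4 to 0 at rest with total tags. After LPS they fell from 2 to 0 with the block, to 1 with total tags and ran from 0 to 2 without a library. Member peaks in the own lists of all 3 graft LPS libraries rose from 5 to 11 when an overlap of 1 base sufficed. The cause of these moves was not tested, except that fewer peaks or libraries enter some settings. The block changed no other call.

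Values that changed sign lay near 0, apart from the H2-Ab1 promoter peak at rest (0.25). After LPS the H2-Aa gene value was 0.020 with promoter peaks, 0.0093 with the block, 0.098 with total tags and -0.14 to 0.17 without a library. Cd74 was -0.0074 without CD45.1 mouse 1 and ran to 0.13. The H2-Aa promoter peak was 0.11 with total tags and -0.19 to 0.19 without a library. At rest the H2-Ab1 promoter was -0.031 without CD45.1 mouse 6 and ran to 0.39. The H2-Aa promoter was -0.16 without it and -0.067 without CD45.2 mouse 6, and ran to 0.17. Total-tag scaling moved the median of all features by 0.14 (LPS peaks), 0.13 (LPS genes), -0.14 (LPS in host microglia) and 0.10 (interaction). No paired analysis was possible for LPS against untreated because each mouse had 1 treatment. With 3 libraries a group and low LPS counts, an absent call does not show equal accessibility.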
